A study of Macaca mulatta with 4 samples.

Results

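Plexins are cell-surface receptors for semaphorins, a family of secreted and membrane-bound guidance proteins. In the developing cerebellum, granule cell precursors divide in the external granule layer, leave the cycle, move tangentially and then migrate inward past Purkinje cells along Bergmann glia. SEMA6A and its receptor PLXNA2 are known from mouse genetics to act in this inward migration, and PLXNB2 is known to act in the precursors while they divide and migrate. The 10 genes described here are 5 plexins (PLXNA1, PLXNA2, PLXNA4, PLXNB1 and PLXNB2) and 5 semaphorins (SEMA3C, SEMA3D, SEMA6A, SEMA6D and SEMA7A). They were taken by symbol, and each matched 1 of the 30807 genes of the deposited matrices. The identifiers there are ENSMMUG00000016720 (PLXNA1), ENSMMUG00000004563 (PLXNA2), ENSMMUG00000005127 (PLXNA4), ENSMMUG00000003074 (PLXNB1), ENSMMUG00000008331 (PLXNB2), ENSMMUG00000011785 (SEMA3C), ENSMMUG00000021730 (SEMA3D), ENSMMUG00000012265 (SEMA6A), ENSMMUG00000012144 (SEMA6D) and ENSMMUG00000021825 (SEMA7A).

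Nuclei came from the frozen cerebellum of 4 rhesus macaque fetuses, with 1 library per fetus. The 2 controls, a female and a male, had no intervention and were taken at 130 days of gestation. The 2 LPS fetuses received 1 mg of lipopolysaccharide into the amniotic fluid 5 days before delivery, and were a male of 133 days and a female of 131 days. LPS, a component of the bacterial wall, models inflammation of the fetal membranes, and each group holds 1 fetus of each sex.

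The libraries held 34282015 to 61665690 UMIs (unique molecules counted), and 6890 to 9250 nuclei each passed the filters, 32565 in all. The median nucleus had 1882 to 4508 UMIs, and both male libraries were below both female libraries. Pairs of libraries shared 16 to 21 barcodes, against 7.9 to 11.7 expected from the number of barcodes alone. The granule lineage made up 22341 nuclei, or 68.6%. The male LPS library stood apart: 26.9% of its nuclei fell in clusters left unnamed against 3.43% to 6% elsewhere, free RNA was estimated at 20.8% of its granule UMIs against 12.1% to 15%, and it gave 1447 of the 2599 nuclei of the mature granule stage. Calls that were lost or gained without it are given as such. Purkinje cells, with 10 of 10 markers raised, numbered only 131 nuclei, 18 to 56 per library.

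SEMA6A could not be measured. Its row held 1 UMI over all nuclei, in the male control library, and 0 in the other 3 libraries. No level, stage pattern or LPS comparison is therefore given for it, and the low count says nothing about whether these cells make the transcript. The other 9 genes had between 1437 UMIs (SEMA3D) and 26302 UMIs (PLXNA2). Levels are given as UMIs of the gene scaled to the UMI total of a class (CPM), and are compared between classes and not between genes, since gene lengths were not used here. Empty droplets, given below for comparison, are the barcodes ranked by UMI number from 3 times the nuclei kept, as many as there were nuclei. Their median was 196 to 496 UMIs, highest in the male LPS library. Free RNA was estimated from barcodes of at most 100 UMIs, at 12.1% to 20.8% of granule UMIs. A granule level under that of empty droplets thus need not be background. No plexin, semaphorin or neuropilin took part in the clustering.

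**Figure D1:**
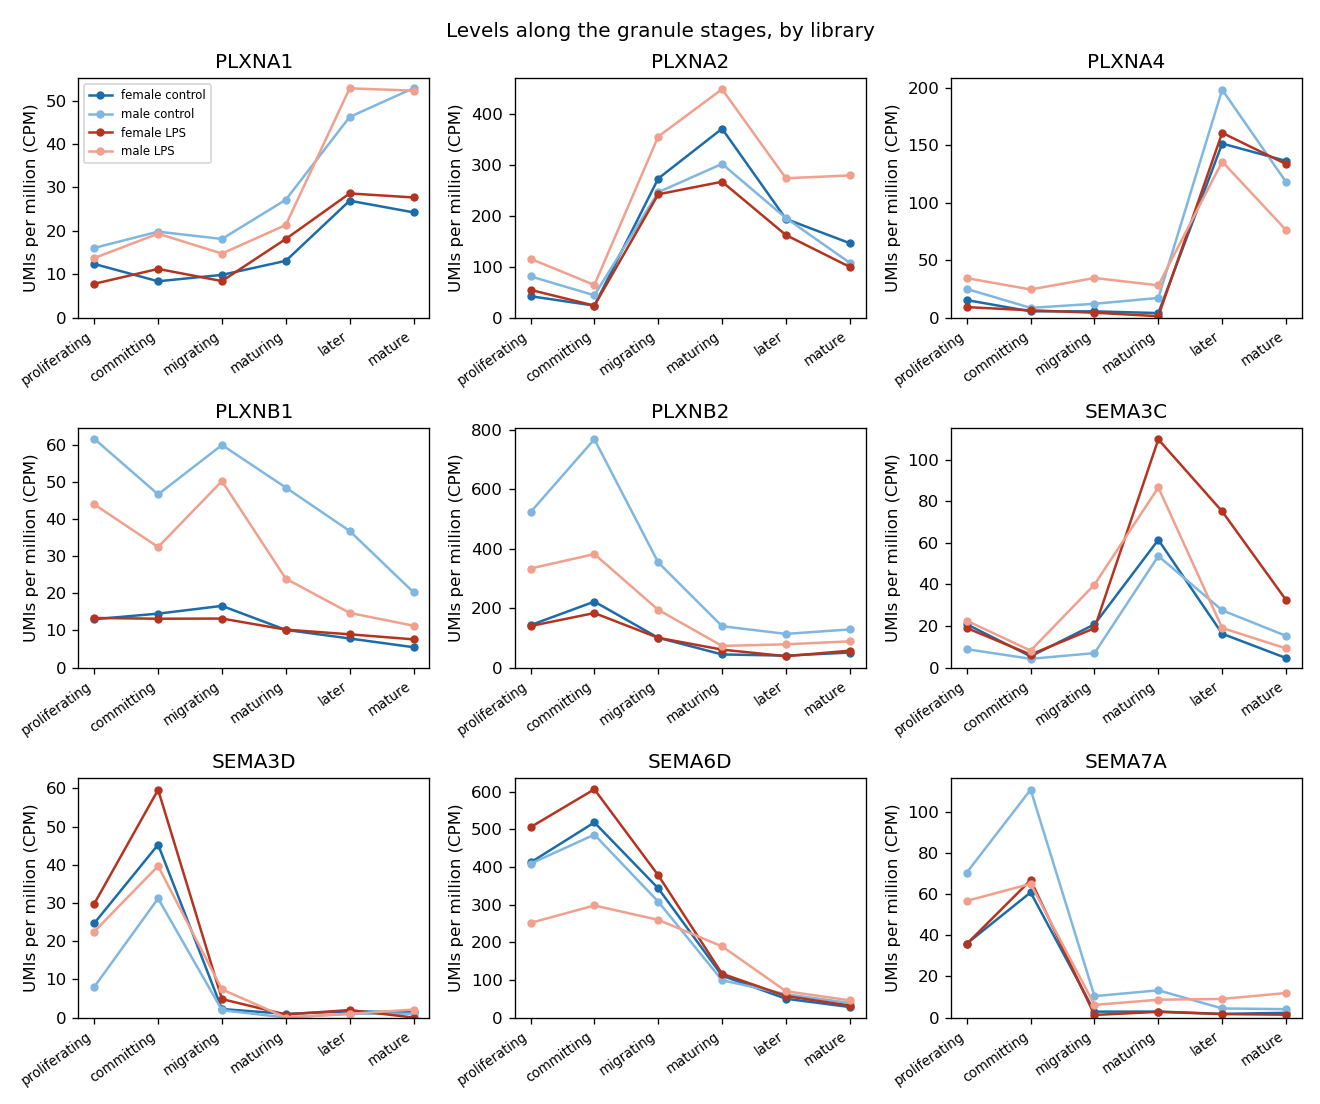
Levels of the 9 measurable genes in CPM (y axes, each from 0) over the 6 granule stages (x axes), with a line per library. PLXNB2, SEMA6D, SEMA3D and SEMA7A were highest in the proliferating and committing stages, PLXNA2 and SEMA3C in the maturing stage, and PLXNA1 and PLXNA4 in the later and mature stages.

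The first question was how these genes follow granule cell development. Neighbouring stages were compared within libraries by edgeR's quasi-likelihood test, and a gene was called at an adjusted p below 0.05 and a log2 fold change beyond 0.5. Of all 11987 genes tested, 13.6% were called from proliferating to committing, 34.3% from committing to migrating, 21.2% from migrating to maturing, 12.4% from maturing to later and 4.46% from later to mature. Of the 10 genes, 3, 6, 6, 5 and 1 were called at the same steps.

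PLXNA2, the SEMA6A receptor, was low in committing nuclei and rose in migrating nuclei. In committing nuclei it had 23.4 CPM in the female control, 43.8 in the male control, 23.4 in the female LPS and 64.1 in the male LPS library. In migrating nuclei the same libraries had 273, 247, 242 and 356 CPM, so that the stages did not overlap. The committing levels were under those of empty droplets in every library (63.4, 168, 31.5 and 205 CPM). The rise was 3.29 on the log2 scale (SE 0.212, adjusted p = 3.03e-11). The migrating stage joined 2 clusters, and they differed: the one led by RASGEF1B and FSTL4 had 53.3 to 118 CPM and the one with ERBB4 and CNTN2 had 394 to 572 CPM. PLXNA2 then fell by 0.72 from maturing to later (SE 0.176, adjusted p = 0.00519). Before its rise it had fallen by 1.04 from proliferating to committing (SE 0.231, adjusted p = 0.00225). The proliferating levels, 42, 81, 54.4 and 116 CPM in the same order, were themselves under those of empty droplets in 3 of the 4 libraries.

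PLXNB2, a receptor of class 4 semaphorins, took the opposite course. Its levels in committing nuclei were 222 CPM in the female control, 767 in the male control, 183 in the female LPS and 381 in the male LPS library. It fell by 0.74 from committing to migrating (SE 0.123, adjusted p = 2.93e-05) and by a further 1.096 from migrating to maturing (SE 0.134, adjusted p = 1.01e-06). In maturing nuclei 44 to 139 CPM remained, with the male control again highest. Empty droplets had 158, 107, 191 and 53.7 CPM of PLXNB2 in the female control, male control, female LPS and male LPS libraries. The male libraries were above this level in each of these stages, whereas the female libraries were under it in migrating and maturing nuclei and the female LPS library in committing nuclei too.

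PLXNB1, a receptor of SEMA4D, rose by 0.61 from committing to migrating (SE 0.157, adjusted p = 0.00284). Migrating nuclei of the female libraries had 16.6 and 13.2 CPM, under their empty droplets (27.4 and 30.8 CPM), and those of the male libraries 60.1 and 50.3 CPM, above theirs (25.4 and 16.0 CPM). It fell by 0.53 from migrating to maturing (SE 0.16, adjusted p = 0.0133), a call that was lost without the female control or the male LPS library. It also fell by 0.69 from later to mature (SE 0.204, adjusted p = 0.0481), and that call was lost on leaving out any 1 of the 4 libraries.

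PLXNA4, which serves class 3 semaphorins together with neuropilins, rose late. In maturing nuclei it had 3.9 CPM in the female control, 17 in the male control, 1.2 in the female LPS and 28 in the male LPS library. In later nuclei it had 151, 198, 161 and 136 CPM. The maturing levels were under those of empty droplets in every library, at 25.9, 74.4, 18.6 and 73.9 CPM. The rise was 4.12 on the log2 scale (SE 0.489, adjusted p = 2.23e-06). The unnamed granule cluster of 3332 nuclei, which is in none of the stages, had 32.2, 50.3, 31.0 and 80.8 CPM. In every library this lay between the maturing and the later level. PLXNA1, a receptor for SEMA6D, rose by 0.71 from migrating to maturing (SE 0.157, adjusted p = 0.00115) and by 0.98 from maturing to later (SE 0.138, adjusted p = 1.93e-05). In both female libraries PLXNA1 stayed under the level of empty droplets (37.8 and 40.5 CPM) at every stage. Its highest levels there, in later nuclei, were 26.9 and 28.6 CPM, and 27.0 and 27.3 CPM after subtraction of free RNA. The later nuclei of the male libraries, at 46.2 and 52.8 CPM, were above their empty droplets (14.2 and 21.7 CPM).

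Among the semaphorins, SEMA7A, a membrane-anchored member, was found in the early stages. In committing nuclei it had 60.9, 111, 66.9 and 65.1 CPM in the female control, male control, female LPS and male LPS libraries. In migrating nuclei it had 2.9, 10.4, 1.3 and 6.1 CPM, and the stages did not overlap. It fell by 3.83 on the log2 scale (SE 0.296, adjusted p = 4.95e-10), to levels under those of empty droplets in 3 of the 4 libraries. SEMA3D, a secreted member, rose by 0.99 from proliferating to committing (SE 0.216, adjusted p = 0.00184), and fell by 3.37 from committing to migrating (SE 0.258, adjusted p = 4.38e-10). Its rise missed the threshold once free RNA was subtracted. It fell again, by 2.39, from migrating to maturing (SE 0.572, adjusted p = 0.00238), between levels of 1.9 to 7.4 CPM and 0 to 1 CPM. Empty droplets had 9.73, 7.08, 22.5 and 6.72 CPM of SEMA3D in the female control, male control, female LPS and male LPS libraries, so the migrating level was above them only in the male LPS library.

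SEMA6D, a transmembrane member, stayed high for longer. It did not pass the test from committing to migrating (log2 change -0.27, SE 0.192, adjusted p = 0.275), then fell by 1.27 from migrating to maturing (SE 0.204, adjusted p = 3.59e-05) and by 1.08 from maturing to later (SE 0.217, adjusted p = 0.000956). Its levels went from 298 to 607 CPM in committing nuclei to 27.9 to 45.6 CPM in mature nuclei. From maturing nuclei on they were under those of empty droplets in all 4 libraries.

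SEMA3C, a secreted member, was highest in maturing nuclei among the 6 named stages. It fell by 1.75 from proliferating to committing (SE 0.568, adjusted p = 0.0314), a call lost without either control, and rose by 2.17 from committing to migrating (SE 0.512, adjusted p = 0.00128). Committing nuclei had only 4.2 to 8.1 CPM, under empty droplets in all 4 libraries, and the proliferating, migrating and later levels were under them in 3 of 4 each. Maturing nuclei had 61.4 CPM in the female control, 53.6 in the male control, 110 in the female LPS and 86.6 in the male LPS library, against 6.9 to 39.9 CPM in migrating nuclei. The rise was 1.98 on the log2 scale (SE 0.344, adjusted p = 9.00e-05). It fell by 1.22 from maturing to later (SE 0.326, adjusted p = 0.0101), a call that was lost without the female control and after subtraction of free RNA. The unnamed granule cluster of 3332 nuclei had 58.4, 60.7, 151 and 47.9 CPM in the female control, male control, female LPS and male LPS libraries. The female LPS library was above and the male LPS library below its level in maturing nuclei, beyond the counting intervals, and the male LPS library was the lowest of the 4 there.

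The 21 other plexins, neuropilins and semaphorins and the 31 signalling partners, of which all but RAC1 matched a row, were counted in the same contrasts. From committing to migrating, 34.3% of all genes tested were called, 2015 up and 2099 down, and 8 of the 16 family genes that passed the filter on low counts rose and 0 fell, among them SEMA4D (log2 change 1.43, SE 0.0924) and the co-receptor NRP2 (1.38, SE 0.338). Of 24 partners, 16 rose and 0 fell, among them the adhesion molecule L1CAM (2.44, SE 0.122) and CRMP1 (1.22, SE 0.109), which mediates semaphorin signals inside the cell. From migrating to maturing, 6 family genes rose and 3 fell, with PLXND1 up by 2.94 (SE 0.358) and NRP1, a co-receptor of secreted semaphorins, fell by 2.97 (SE 0.652). From maturing to later, 3 family genes rose and 4 fell, with the repellent SEMA3A down (log2 change -2.52, SE 0.208) and SEMA3E, a ligand of PLXND1, up by 1.71 (SE 0.318). At the first and last steps 0 and 1 of the 16 family genes were called. Of the partners, 1 rose and 5 fell from migrating to maturing, 1 rose and 4 fell from maturing to later, L1CAM among those that fell (log2 change -0.59, SE 0.108), and 0 rose and 1 fell at the first and at the last step. The partners, unlike the family, could take part in the clustering that made the stages.

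**Figure D2:**
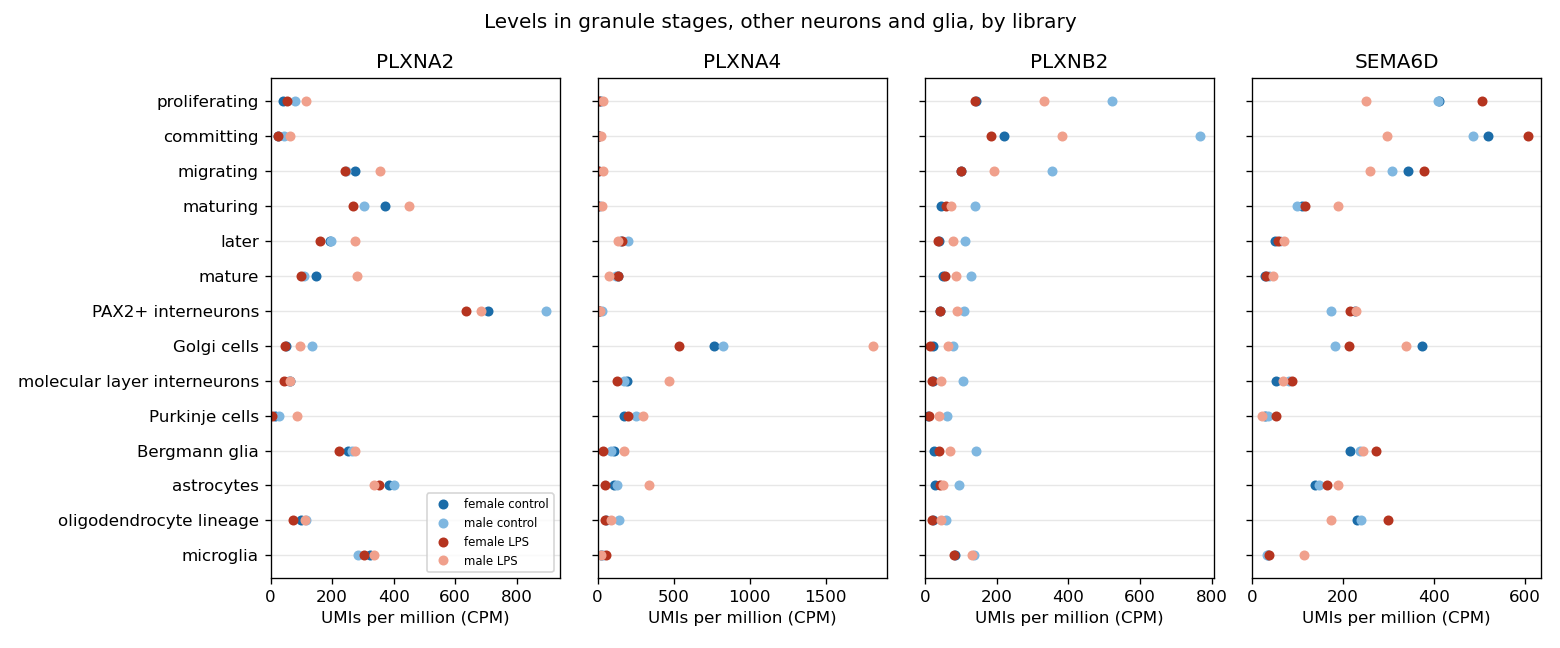
Levels of PLXNA2, PLXNA4, PLXNB2 and SEMA6D in CPM (x axes, each from 0) in the granule stages, other neurons and glia (y axis), with a point per library. PLXNA2 was highest in PAX2+ interneurons, PLXNA4 in Golgi cells, and PLXNB2 and SEMA6D in early granule nuclei.

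The second question was where the genes stood outside the granule lineage. The 17 groups with at least 10 nuclei in every library, 6 stages and 11 other classes, were ordered by mean level. Most neighbours in that order overlapped in their ranges over the libraries: 16 of 16 pairs for 6 of the 9 genes and 15 of 16 for PLXNA2, PLXNA4 and SEMA6D. These ranges were not paired by library, so differences between libraries can add to the overlap. PLXNA2 led in PAX2+ interneurons, the precursors of inhibitory interneurons, with 636 to 895 CPM, which did not overlap with the next group, astrocytes, at 336 to 401 CPM. The migrating granule cluster with ERBB4 and CNTN2 was not ranked on its own. Its PLXNA2 range, given above, reached beyond that of astrocytes and stayed under that of PAX2+ interneurons. PLXNA4 led in Golgi cells, large inhibitory neurons of the granular layer, with 538 to 1812 CPM, above the 128 to 471 CPM of molecular layer interneurons. The highest Golgi value came from 15 nuclei of the male LPS library. Unipolar brush cells were not ordered, with 8 nuclei in the male control and 9 in the female LPS library. They had 385 to 672 CPM of PLXNA4, a range that overlapped that of Golgi cells, though each library had more in Golgi cells.

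Purkinje cells were compared with the granule lineage as a whole, an average over its stages. Of all 12759 genes tested, 35.2% were called between Purkinje cells and the granule lineage, and of the 10 genes 3 were higher and 5 lower. PLXNA4 was higher by 2.07 on the log2 scale (SE 0.187, adjusted p = 8.46e-09), PLXNA1 by 1.099 (SE 0.294, adjusted p = 0.00523) and SEMA3D by 2.31 (SE 0.403, adjusted p = 8.41e-05). The PLXNA1 call was lost without the male control, which had 122 CPM against 17.4 to 61.7 CPM in the other libraries. In both female libraries PLXNA1 in Purkinje cells (27.4 and 17.4 CPM) was under the level of empty droplets (37.8 and 40.5 CPM). After subtraction of free RNA 26.7 and 15.7 CPM were left. Against single stages the ranges over the libraries overlapped. PLXNA4 had 174 to 301 CPM in Purkinje cells and 136 to 198 CPM in later granule nuclei. Within each library, though, PLXNA4 was higher in Purkinje cells, at 174 against 151, 249 against 198, 200 against 161 and 301 against 136 CPM. The 95% counting intervals overlapped in every library but the male LPS library. Its intervals were 214 to 411 CPM, from 39 UMIs in 18 Purkinje nuclei, against 120 to 152 CPM. PLXNA1 had 24.2 to 52.8 CPM in mature granule nuclei, within its range in Purkinje cells. SEMA3D had 14.5, 81.4, 69.5 and 7.7 CPM in Purkinje cells of the female control, male control, female LPS and male LPS libraries, the last from 1 UMI and close to the 6.6 CPM of the granule lineage there. These levels overlapped the 31.2 to 59.6 CPM of committing granule nuclei. PLXNA2 was lower by 3.12 (log2 change -3.12, SE 0.316, adjusted p = 4.83e-08), with 12.9, 28, 4.3 and 84.9 CPM in the female control, male control, female LPS and male LPS libraries. These levels were under those of empty droplets in every library, at 63.4, 168, 31.5 and 205 CPM. Free RNA was estimated at 3.57%, 7.49%, 3.18% and 7.16% of Purkinje UMIs in the same order. A level under that of empty droplets thus need not be background. PLXNB2 (log2 change -2.47, SE 0.251) and SEMA6D (-2.51, SE 0.232) were also under the level of empty droplets in all 4 libraries. SEMA3C (-3.42, SE 0.512) and PLXNB1 (-2.04, SE 0.468) rested on 5 and 8 UMIs in Purkinje cells. The median gene lay at -0.15 in this contrast. Of the wider family, 2 of 16 genes were higher, SEMA6B (log2 change 1.36, SE 0.289) and SEMA4G (1.09, SE 0.313), the second a ligand of PLXNB2, and 4 were lower, among them PLXNA3 (-2.06, SE 0.31).

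Bergmann glia, the cells along whose fibres granule cells migrate, were compared in the same way, with 36.4% of 13265 genes called. PLXNB1 was higher than in the granule lineage by 1.68 (SE 0.232, adjusted p = 0.000489), and PLXNB2 (log2 change -1.23, SE 0.133, adjusted p = 0.000115), SEMA7A (-1.91, SE 0.187, adjusted p = 6.72e-05) and SEMA3C (-0.62, SE 0.103, adjusted p = 0.00137) were lower. PLXNA4 was higher by 0.70 (SE 0.229, adjusted p = 0.0351), a call lost under 5 of the 10 alternatives tried for it. PLXNA2 had 221 to 276 CPM in Bergmann glia, and its difference of 0.36 (SE 0.11) was inside the fold threshold. In Bergmann glia SEMA7A was under the level of empty droplets in all 4 libraries, PLXNB2 in both female libraries, SEMA3C in both male libraries and PLXNB1 in the female LPS library. Of the wider family, 5 of 18 genes were higher and 9 lower, with SEMA3B (log2 change 3.24, SE 0.36) and SEMA5B (2.999, SE 0.206) the largest of the increases. The partner with the largest difference was ERBB2, a co-receptor that joins class B plexins (3.96, SE 0.206).

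In the oligodendrocyte lineage 27% of 12821 genes were called. SEMA3D was higher than in the granule lineage by 3.15 (SE 0.229, adjusted p = 6.06e-08), with 79.9, 103, 81.1 and 46.5 CPM in the female control, male control, female LPS and male LPS libraries. SEMA3C (1.02, SE 0.199) and PLXNB1 (0.92, SE 0.211) were higher, and PLXNA2 (-1.0, SE 0.144), PLXNB2 (-1.94, SE 0.172) and SEMA7A (-1.53, SE 0.356) lower. PLXNB1 in this lineage had 22.3 and 22.1 CPM in the female control and female LPS libraries, under their empty droplets (27.4 and 30.8 CPM). PLXNB2 was under empty droplets in all 4 libraries, PLXNA2 in both male libraries, SEMA3C in the male LPS and SEMA7A in the male control library. Of the wider family, PLXNB3 (log2 change 6.92, SE 0.541) and SEMA5A (6.59, SE 0.257) had the largest differences in this contrast.

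**Figure D3:**
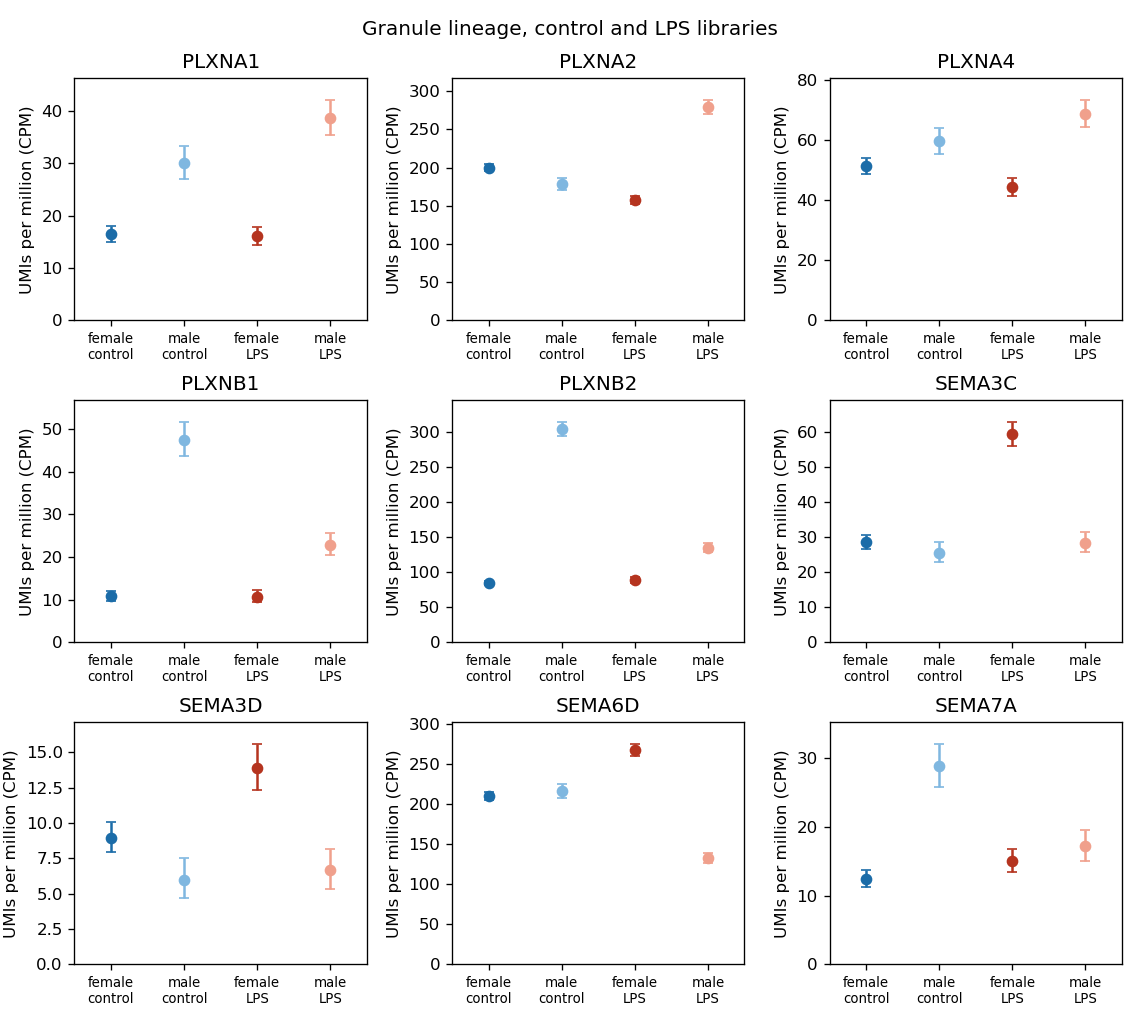
Levels of the 9 measurable genes in the granule lineage in CPM (y axes, each from 0), with a point per library and bars for the 95% exact Poisson interval, which covers counting error only. The LPS and control libraries overlapped for all 9 genes.

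The third question was whether LPS changed these genes. In the granule lineage the groups overlapped for all 9 measurable genes. Summed counts were compared by edgeR's quasi-likelihood test, with a call at an adjusted p below 0.1 and a log2 fold change beyond 0.25. No gene was called: 0% of 14888, with 27 genes at an unadjusted p below 0.05, and 0 of the 9 measurable genes at either threshold. DESeq2 called 0 genes in this contrast, with 60 at an unadjusted p below 0.05. Of the wider family and the partners, 18 and 30 genes passed the filter on low counts, and 0 were called. With 2 fetuses per group, the standard errors of the 9 genes were 0.341 to 0.764 on the log2 scale, so that changes of about that size lay within the error. Changes well beyond the standard error could go uncalled too. SEMA3E in maturing nuclei, with a log2 change of 2.70 (SE 0.941), was not called.

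The spread lay between libraries of the same group. PLXNB2 had 84.8 CPM in the female control, 304 in the male control, 89.1 in the female LPS and 135 in the male LPS library. PLXNB1 had 10.9, 47.5, 10.7 and 22.9 CPM in the same order. Both genes were higher in both male libraries, and the LPS to control ratio of PLXNB2 was 1.05 in females (95% counting interval 0.99 to 1.11) and 0.444 in males (0.42 to 0.47). In empty droplets PLXNB2 ran the other way, at 158, 107, 191 and 53.7 CPM. Within single stages the LPS to control ratio of PLXNB2 ran from 0.497 to 0.690 in males and from 0.827 to 1.37 in females. Mature nuclei were 1447 of 4332 granule nuclei in the male LPS library and 434 of 6071 in the male control library. Sex and the other differences between these libraries, depth among them, cannot be told apart. Both LPS fetuses were also older, at 131 days (female) and 133 days (male) against 130 days in the controls. LPS and gestational age therefore cannot be told apart in any of these comparisons.

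PLXNA2 in the granule lineage had 200 CPM in the female control, 178 in the male control, 157 in the female LPS and 279 in the male LPS library, a log2 change of 0.20 (SE 0.381, adjusted p = 1.00). Without the male LPS library the change was -0.27. SEMA3C had 28.6, 25.7, 59.4 and 28.5 CPM, with the female LPS library alone high (log2 change 0.69, SE 0.451). SEMA6D had 210, 216, 268 and 132 CPM, so that the 2 LPS libraries lay on either side of the controls.

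Within single stages 0% of genes were called in each of the 6 stages, with 26 to 47 genes at an unadjusted p below 0.05 (DESeq2 called 2 genes in maturing nuclei and 0 in the other 5 stages), and 0 of the 10 genes reached an unadjusted p below 0.05 in the main test. Not tested, for low counts, were SEMA6A in all 6 stages, SEMA3D in maturing, later and mature nuclei, and SEMA7A in mature nuclei. In maturing nuclei SEMA3C and SEMA6D did not overlap between groups, both higher in LPS. SEMA3C had 61.4 and 53.6 CPM in the controls and 110 and 86.6 CPM in the LPS libraries (log2 change 0.77, SE 0.343). Without the female LPS library the log2 change was 0.49 (SE 0.498), and with sex as a covariate it was 0.77 (SE 0.196), with an unadjusted edgeR p of 0.0038 and an adjusted p of 1.00. SEMA6D had 111 and 99.1 CPM against 116 and 189 CPM (0.51, SE 0.33). The SEMA6D difference rested on the male LPS library, and without it the log2 change was 0.20 (SE 0.524). All 4 SEMA6D levels were under those of empty droplets (190 to 228 CPM). Among all genes tested in that stage, 15.6% did not overlap. SEMA3C in committing nuclei (4.2 to 5.4 CPM in controls, 6.3 to 8.1 CPM in LPS) and SEMA3D in migrating nuclei (1.9 to 2.2 CPM against 4.8 to 7.4 CPM) did not overlap either, but both overlapped once free RNA was subtracted. The SEMA3C levels were under those of empty droplets (18.4 to 41.6 CPM) in all 4 libraries, and the SEMA3D levels in all but the male LPS library (7.4 against 6.72 CPM). In 1 of the 2 clusters joined as migrating nuclei, the SEMA3D levels of the groups still did not overlap after the subtraction, at 1.89 and 3.73 CPM in the controls and 4.99 and 16.3 CPM in the LPS libraries, from 4 to 18 UMIs each. The share of all genes that did not overlap was 17.6% and 15.5% in these stages. In proliferating, later and mature nuclei the groups overlapped for all 9 measurable genes.

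Purkinje cells, Bergmann glia, astrocytes and the oligodendrocyte lineage likewise gave 0% called, with 28, 38, 49 and 70 genes at an unadjusted p below 0.05 and 0 of the 10 genes among them. DESeq2 called 0 genes in the first 3 and 1 gene in the oligodendrocyte lineage. Not all of the 10 genes passed the filter on low counts and were tested. PLXNB1, SEMA3C and SEMA6A did not in Purkinje cells, nor did SEMA3D, SEMA6A and SEMA7A in astrocytes. In Bergmann glia SEMA3D and SEMA6D, and in astrocytes PLXNA2 and SEMA6D, did not overlap between groups. The share of all genes tested that did not overlap was 16% and 18.5% there. SEMA6D in astrocytes had 139 and 147 CPM in the controls against 164 and 190 CPM in the LPS libraries (log2 change 0.30, SE 0.304), again at or under the level of empty droplets.

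**Figure D4:**
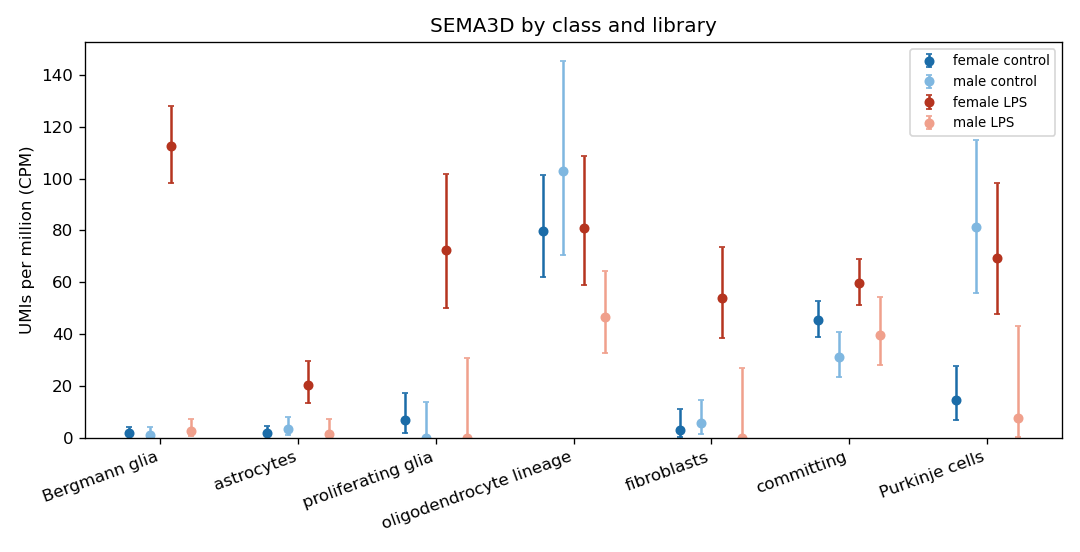
SEMA3D in CPM (y axis, from 0) in 7 classes (x axis), with a point per library and bars for the 95% exact Poisson interval, which covers counting error only. The female LPS library alone was high in Bergmann glia, astrocytes, proliferating glia and fibroblasts.

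SEMA3D in glia was high in 1 library. In Bergmann glia it had 1.8 CPM in the female control, 1.2 in the male control, 112 in the female LPS and 2.5 in the male LPS library. Proliferating glia had 72.5 CPM in the female LPS library against 0 to 6.7 CPM elsewhere, fibroblasts 54 against 0 to 5.7 CPM, and astrocytes 20.3 against 1.3 to 3.2 CPM. In the oligodendrocyte lineage, by contrast, the female LPS library lay inside the range of the controls. Empty droplets of the female LPS library had 22.5 CPM of SEMA3D against 6.72 to 9.73 CPM in the others, and after subtraction of free RNA its Bergmann glia kept 126 CPM. The gene did not pass the filter on low counts in Bergmann glia, and the male LPS library did not share the rise, so that it is a value of 1 fetus.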

How the data were processed

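The members and gene lists were chosen with earlier results of these data known. The authors isolated nuclei from cerebellum, made 10x Genomics 3' v3.1 libraries and mapped reads with introns to Mmul_8.0.1. The protocol names Cell Ranger 5.0, whereas the submitters' processing notes name version 4. The deposited values are raw UMI counts per gene and barcode, of every barcode, unfiltered and unnormalized.

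Here a barcode was kept as a nucleus from 500 genes upward, unless over 5% of its UMIs were mitochondrial. CPM are counts scaled to the UMI total of a class in a library. Libraries were integrated with Seurat 5.3.0 (2000 variable features, 30 dimensions, resolution 0.5) without plexin, semaphorin and neuropilin genes, and granule nuclei were clustered again. Clusters were named from fixed marker lists when at least 3 markers were raised, and 2 of 23 clusters stayed unnamed, as did 1 of 8 granule clusters. The name was withheld if another list had more genes among the 10 leading genes, as in that granule cluster (2 against 1). It was also withheld for few UMIs with no own marker among the 10. This held for a cluster of 2541 nuclei, 1930 of them male LPS, at 0.317 of the library median. The granule list scored highest in it. A cluster named Bergmann glia or astrocytes in this way, but with 5 mitotic genes raised by over 2 on the log2 scale, was kept apart as proliferating glia, for which there was no marker list. Names may therefore differ from those of the study. Doublets were scored with Scrublet in scanpy and kept, except in an alternative, and a cluster with over 50% doublets stayed unnamed. The automatic threshold failed in both male libraries, and the median of the others was used.

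Counts were summed per library and class and tested with edgeR 4.0.16 (quasi-likelihood, Benjamini-Hochberg adjustment over all genes that passed the filter on low counts, library as a block between stages or classes). DESeq2, no filter, other nuclei, free RNA subtracted, sex as a covariate and each library left out were the alternatives. Groups came from the labels, and each fetus was 1 replicate. Named were all 10 members, and up to 6 called genes of the other lists per contrast. By Pearson correlation of log2(CPM + 5) over 17 groups, the genes most like PLXNA2 and PLXNB2 were found. Intervals cover counting error only. The tests were checked on simulated data. No sequence or coordinate is given, since no genome of this build was used here.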

Additional observations from a re-analysis of the deposited data

Results flagged for a closer look

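In the granule lineage 4 genes moved in opposite directions with LPS in females and males, each beyond counting error. The share of all genes that did the same is not given here, so the count is not read as a trait of these genes. The male minus female difference of the log2 LPS to control ratio was 0.99 for PLXNA2, 0.41 for PLXNA4, -1.06 for SEMA6D and -1.03 for SEMA7A. There is 1 fetus per sex and treatment, so the difference was not tested, and sex and library cannot be told apart. Nor can LPS and gestational age, as the LPS fetuses were of 131 days (female) and 133 days (male) and the controls of 130 days. Single stages did not all follow the lineage. The male ratio of PLXNA4 was 1.15 over the lineage, but 0.684 in later and 0.646 in mature nuclei, the stages with most of its UMIs. For SEMA7A it was 0.596 over the lineage, but 2.04 (95% counting interval 0.88 to 5.13) in later and 2.93 (1.08 to 11.1) in mature nuclei, where the gene had few UMIs. For SEMA6D it was 0.611 over the lineage and 1.91 in maturing nuclei, while for PLXNA2 it was above 1 in all 6 stages, from 1.40 to 2.60. The female ratio of PLXNA2 was 1.30 (1.00 to 1.68) in proliferating and 0.998 in committing nuclei, and 0.681 to 0.887 in the other 4 stages. All 4 differences include the male LPS library, and none has a value without it. That library had a larger share of mature nuclei (1447 of 4332 granule nuclei) and of free RNA (20.8%). Whether these move the 4 values was not tested.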

How the results depend on the processing

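The genes called for LPS against control, 0 in every class and stage by the main test, moved under several settings. Without the filter on low counts the numbers were 5 in proliferating, 9 in migrating, 13 in maturing, 16 in later and 8 in mature nuclei, 4 in Purkinje cells, 10 in Bergmann glia, 4 in astrocytes and 9 in the oligodendrocyte lineage. With sex as a covariate they were 4 in proliferating, 2 in committing, 1 in migrating and 6 in maturing nuclei and 13 in the oligodendrocyte lineage, and by DESeq2 2 in maturing nuclei and 1 in the oligodendrocyte lineage. Leaving out 1 library at a time, and so leaving 1 fetus whose spread is assumed to be like that of the others, gave 30 to 62 in proliferating nuclei, 0 to 1 in migrating, maturing and later nuclei, 1 to 9 in Purkinje cells, 0 to 8 in Bergmann glia, 0 to 58 in astrocytes and 10 to 56 in the oligodendrocyte lineage. None of these was one of the 10 genes, except SEMA3D in Bergmann glia (1 member called), without the filter (log2 change 5.17, edgeR adjusted p = 1.68e-11) and without the male LPS library (6.14, adjusted p = 1.64e-07; 0 to 1 members over the 4 libraries left out). Without the female or the male control its adjusted p was 0.772 and 1.00. Both calls rest on the female LPS library.

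In the granule lineage the sign of the LPS change turned for 8 of the 9 genes. PLXNA4 was at -0.0025 with sex as a covariate and -0.0092 with at least 1000 genes per nucleus. Over the libraries left out the log2 change ran from -0.51 to 0.76 for PLXNA1, -0.27 to 0.55 for PLXNA2, -0.32 to 0.31 for PLXNA4, -1.41 to 0.57 for PLXNB1, -1.35 to 0.35 for PLXNB2, -0.19 to 0.87 for SEMA3D, -0.69 to 0.33 for SEMA6D and -0.75 to 0.32 for SEMA7A.

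Between granule stages, the members called from later to mature, 1 in the main test, were 3 without the filter, 0 with at least 1000 genes, 2 with free RNA subtracted and 0 to 2 with a library left out. DESeq2 also called 1 there, SEMA6D in place of PLXNB1. The genes called over all genes with a library left out were 945 to 1516 from maturing to later (lowest without the female control) and 201 to 563 from later to mature (lowest without the female control). From proliferating to committing, 2 to 5 were called with a library left out, and SEMA3C was lost without either control.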

Other observations

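The genes whose mean levels over the 17 classes and stages were most like those of PLXNB2 were ITGBL1 (Pearson r of log2(CPM + 5) 0.95) and 2 genes listed by identifier alone (0.93 for both). For PLXNA2 they were 1 gene listed by identifier alone (0.75), SCYL2 (0.73) and ZNF609 (0.73). The points share their 4 libraries, and no test was made. SEMA3C in fibroblasts, like SEMA3D in Bergmann glia, was high in the female LPS library alone, at 123 CPM against 1.5 to 7.3 CPM in the other 3 libraries.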
